A study of Mus musculus with 12 samples.

Results

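Potassium channel genes were taken as the rows whose symbol starts with Kcn and whose level, averaged over 12 mouse heart libraries, was at least 0.5 CPM. CPM are counts relative to the size of each library, scaled between libraries by TMM, the trimmed mean of M values. Of 82 Kcn genes among the 17397 genes of the table, 49 met this rule, and 33 did not. Kcnk13 was just inside the threshold with a mean of 0.532 CPM, and Kcnip1 just outside with 0.497 CPM. RNA was from hearts of male wild-type C57BL/6J mice, 8 weeks of age when assigned, in 4 groups of 3 libraries. Tumour trained mice were injected in the tail vein with 100000 B16F10 cells, a mouse melanoma line, and ran on a treadmill. Tumour mice received the cells and stayed in their cages. Trained mice ran without tumour cells, and control mice were labelled saline and did not run. Running lasted 4 weeks at 5 days a week, and after a week of adaptation the main bout was 35 min at 12 m/min. The labels do not say whether saline was also given to trained mice. They do not tie each library to its own mouse either, so the p-values speak only of the spread among these 12 libraries.

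Potassium channels let potassium leave or enter a cell along its gradient. In heart muscle, inward rectifiers and leak channels hold the resting potential, and voltage-gated channels end the action potential. Pore subunits are encoded by most Kcn genes, and the Kcnab, Kcne, Kcnip and Kcnmb genes encode accessory subunits that set gating, surface level or turnover. The adult mouse ventricle repolarizes mainly through fast transient outward (Kv4) and sustained delayed rectifier currents such as that of Kv1.5, whereas in human hearts the ERG and KCNQ1 channels have the larger part.

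Depth was 8843906 to 13344847 counts a library, and 3 counts equal 0.225 to 0.339 CPM. The extraction protocol speaks of livers and the tissue label of heart. Levels of Alb, a liver gene, did not exceed 3.93 CPM, and those of the cardiac myosin gene Myh6 were at least 6525 CPM. Of 5 atrial markers, Sln and Bmp10 did not exceed 0.105 CPM, Myl7 did not exceed 0.538 CPM and Myl4 did not exceed 2.42 CPM in any library. The natriuretic peptide gene Nppa, which ventricles can also express, was at 341, 426 and 139 CPM in tumour 1, 2 and 3, whereas the other 9 libraries had 150.4 to 289 CPM. All 7 genes of a melanocyte list were in the table. Their summed level was 12002 CPM in tumour 1, 6216 CPM in tumour 2 and 22.1 CPM in tumour 3, against 7.39 to 14.2 CPM in the 9 libraries outside the tumour group. The melanocyte enzyme gene Tyrp1 was at 0 in all 9 of those. The 16 genes of a cardiomyocyte list held 3.71%, 9.04% and 13.8% of counts in tumour 1, 2 and 3, and 13.7% to 15.0% in the other 9 libraries. Tumour 1 and 2 therefore stand apart from every other library. The edgeR calls and the members' medians for both comparisons with the tumour group are given with and without them. DESeq2 calls, values scaled to cardiomyocyte genes and some fold changes of single genes are given only with them. The tumour trained libraries did not share this pattern (melanocyte list 7.39 to 11.05 CPM).

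In control hearts, per kilobase of exon, the highest levels were those of Kcnk3 (TASK-1, an acid-sensitive leak channel) with 116 CPM per kb and Kcnip2 (KChIP2, the accessory subunit of Kv4 channels) with 109 CPM per kb. Kcnj11 (Kir6.2, the pore of the ATP-sensitive channel) followed with 68.1 CPM per kb and Kcng2, a silent subunit that modifies other Kv channels, with 51.9 CPM per kb. Kcnj8 (Kir6.1) had 25.1, Kcnh2 (ERG1) 20.1 and Kcnq1 19.2 CPM per kb. Kcnd2 and Kcnd3, which carry the fast transient outward current, had 4.48 and 2.45 CPM per kb. Of the 49 members, 42 passed a filter on low counts and were tested, and Kcnn4, Kcnc4, Kcnq5, Kcne3, Kcnt1, Kcnk13 and Kcnk1 were not.

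Most potassium channel genes were lower in tumour hearts than in control hearts in the libraries rich in melanoma transcripts and not in tumour 3. The median log2 ratio to the control mean over the 42 tested genes was -1.75 in tumour 1, -0.56 in tumour 2 and 0.03 in tumour 3. For the 16 cardiomyocyte genes it was -2.28, -0.79 and -0.02 in the same libraries, and for all genes tested 0.10, 0.08 and 0.01. In tumour 1, 34 of the 42 lay below every control and 4 above, while 42.0% of all genes were below and 48.2% above. In tumour 2 these counts were 29 and 7, while 33.6% of all genes were below and 45.4% above. In tumour 3, 15 lay below every control, 13 above and 14 within the control range, while 29.0% of all genes were below and 31.9% above. Markers of other heart cells moved too. Summed levels of 8 endothelial genes were 669, 1346 and 2100.2 CPM in tumour 1, 2 and 3, whereas the 9 libraries outside the tumour group had 1672 to 1938 CPM. Those of 8 smooth muscle and pericyte genes were 467, 962 and 1241 CPM, against 1101 to 1738 CPM, and those of 5 erythrocyte genes 430.1, 570.1 and 1997 CPM, against 615 to 3455 CPM. The smooth muscle list includes Abcc9 (101, 268 and 489.7 CPM), also the partner of Kcnj11, and was split. In tumour 1, Tagln (16.5 CPM) and Cnn1 (0.479 CPM) lay within those 9 libraries and the rest below. In tumour 2 only Myh11 (22.4 CPM), Notch3 (55.0 CPM) and Abcc9 lay below, and the rest within. The endothelial genes were split in tumour 3. Fabp4 (951 CPM), which adipocytes also express, and Pecam1 (275 CPM) were above those 9 libraries. Kdr (231 CPM) and Tie1 (111.8 CPM) were below them, and the rest lay within their range. Summed levels of fibroblast genes (960.0, 1849 and 917 CPM, against 771 to 1106 CPM) and leukocyte genes (210.4, 374 and 189.5 CPM, against 189 to 273 CPM) were not lower, but their genes were split. In tumour 1, the fibroblast genes Dcn (211 CPM), Pdgfra (16.8 CPM), Lum (24.9 CPM) and Tcf21 (2.69 CPM) were below those 9 libraries. Col1a1 (254 CPM) and Col3a1 (450 CPM) were above them. Of the leukocyte genes in tumour 1, Csf1r (34.9 CPM) and Lyz2 (110 CPM) were below, and Cd68 (39.1 CPM) and Ptprc (9.39 CPM) above. The part of cell makeup in the channel levels was not tested. Fewer cells of a type and less RNA per cell cannot be told apart in such tissue RNA.

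**Figure D1:**
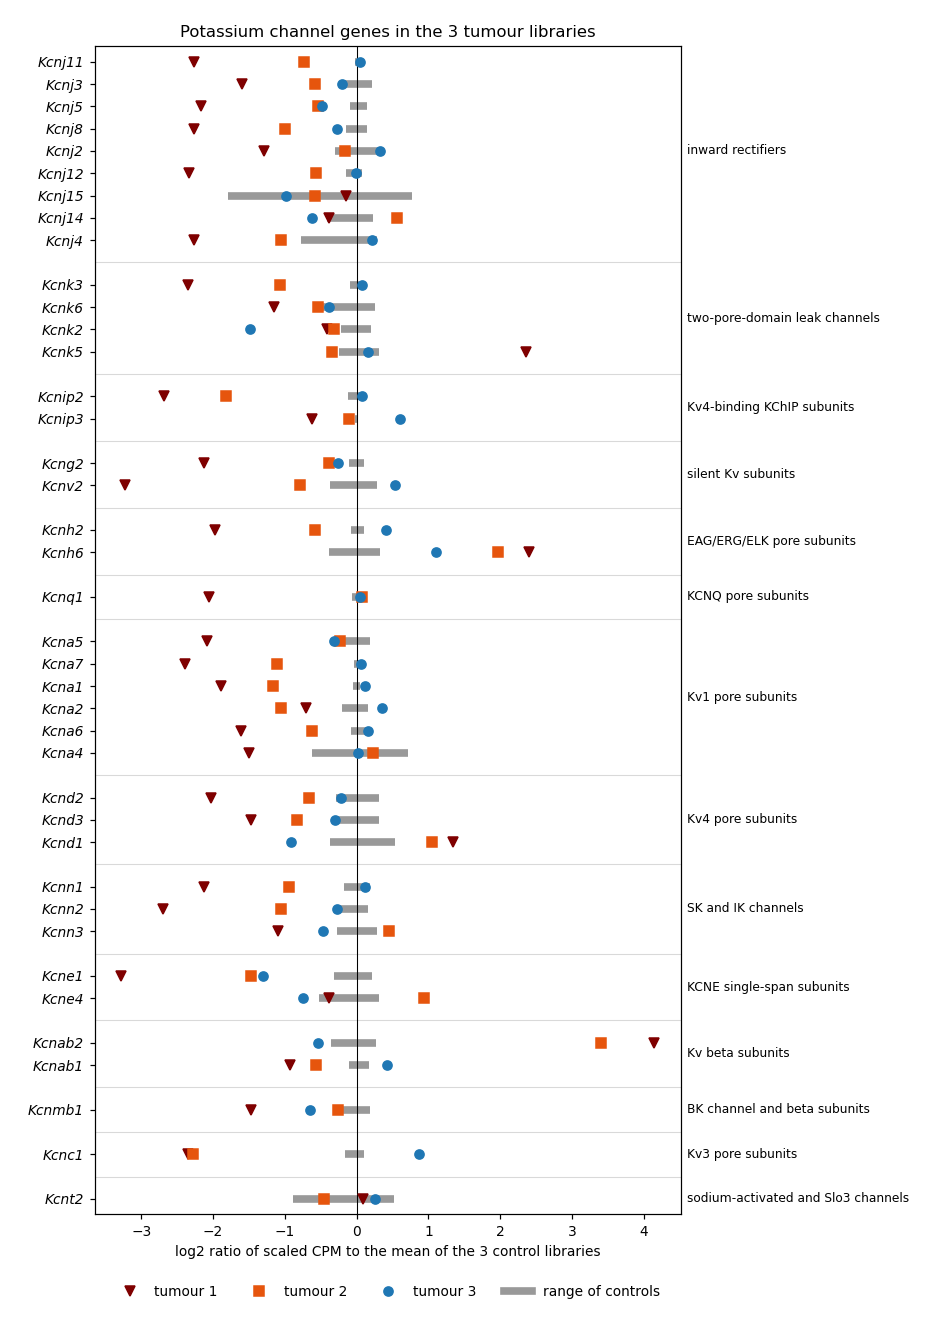
Each row is 1 tested gene reported here, grouped by subfamily and ordered by level; the horizontal axis is the log2 ratio of its scaled CPM to the mean of the 3 control libraries. Triangles, squares and circles are tumour 1, 2 and 3 and the grey bar spans the controls: of the 39 genes drawn, 31 triangles lie below the controls, whereas 13 circles lie within their range.

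Tested over all 12 libraries with edgeR's quasi-likelihood test (adjusted over 12778 genes), 2 members were higher in tumour than in control hearts, against 5.33% of all genes, and 1 was lower, against 1.46% of all genes. Kcnab2 and Kcnh6 were higher and Kcne1 was lower. Without tumour 1 and 2, which leaves tumour 3 alone in its group and assumes that it varies like the others, no member was called. In that fit 8 of 45 members had an unadjusted p below 0.05, as had 12.9% of all genes, and 0.87% of all genes were called higher and 0.531% lower. DESeq2 on 12 libraries called 6 of 49 members, adding Kcnn4 and Kcnq5 (higher) and Kcnd3 (lower), and 14.3% of all genes. Kcnn4 and Kcnq5 met the level threshold only through tumour 1 and 2, so their calls are no separate result. The members' median log2 fold change was -0.62, against 0.11 for all genes, and it was 0.06 without tumour 1 and 2, against 0.02. When libraries were scaled to cardiomyocyte genes, the median of all genes moved to 1.51 and that of the members to 0.36. The sign of the members' median thus turned with this scaling.

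Comparing the tumour trained with the tumour group, 2 members were higher (1.79% of all genes) and 2 lower (7.25% of all genes). Kcne1 and Kcnd3 were higher, and Kcnab2 and Kcnh6 lower. The members' median log2 fold change was 0.53, against -0.04 for all genes. Its sign turned without tumour 1 and 2, at -0.09 against -0.000525 for all genes, and with scaling to cardiomyocyte genes, at -0.39 against -1.36. Both comparisons use the same tumour libraries. The 7 calls had adjusted p-values between 0.0357 and 0.0482, just under the threshold of 0.05. Leaving out any 1 of the 12 libraries other than tumour 3 mostly left no member called. The exceptions were Kcnh6 without tumour 1 in the first comparison (1.55% of all genes) and 6 members without trained 2 in the second (9.34%). Where no member was called, few genes of any kind were. Their share was 0.03% to 0.181% of all genes in the first comparison and 0.0225% to 0.864% in the second. Without tumour 3, 29 of 45 members were called in each comparison, against 53% and 49.8% of all genes. Of these, 6 were higher and 23 lower in tumour than in control hearts, and 22 were higher and 7 lower in tumour trained than in tumour hearts. The 6 include Kcnn4 and Kcnq5, which met the level threshold only through tumour 1 and 2.

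**Figure D2:**
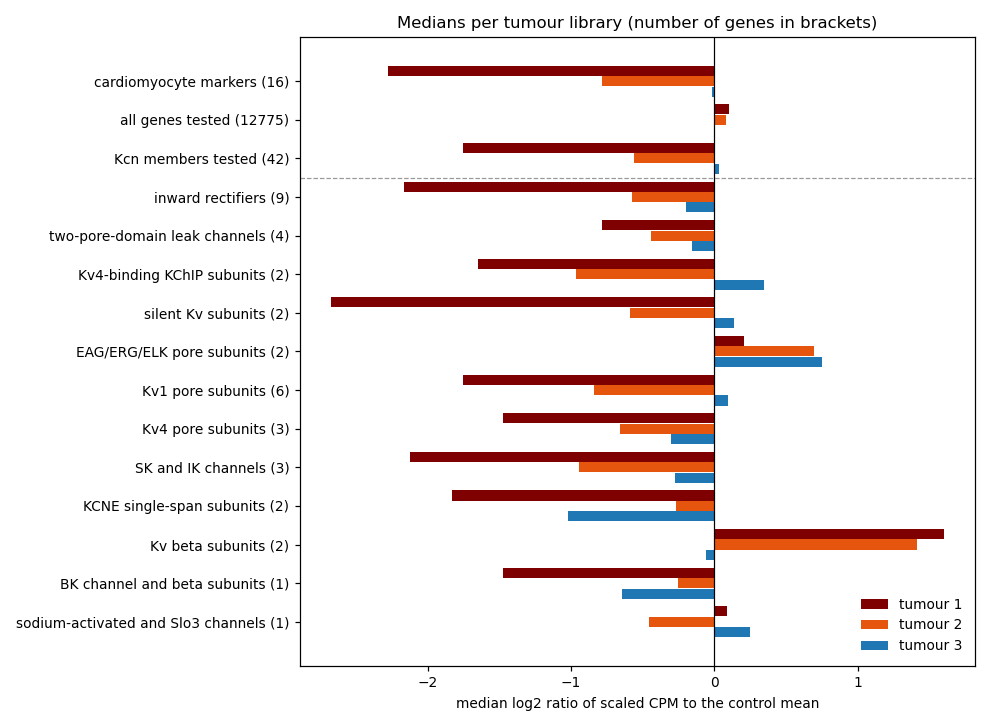
Bars give, for each of the 3 tumour libraries, the median log2 ratio of scaled CPM to the control mean; above the dashed line are the cardiomyocyte genes, all genes and all tested members, below it the subfamilies reported here. The inward rectifiers stood at -2.17, -0.58 and -0.20 in tumour 1, 2 and 3, while the Kv beta subunits stood at 1.61, 1.42 and -0.06.

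A small group of channel genes was high in tumour 1 and 2. Kcnab2 (Kv beta 2, a cytoplasmic subunit of Kv1 channels that belongs to the aldo-keto reductases) had 49.9, 29.7 and 1.94 CPM in tumour 1, 2 and 3, against 2.2, 3.41 and 2.84 CPM in the controls. It had 2.43, 2.05 and 2.42 CPM in tumour trained hearts. Tumour 1 and 2 were far above all other libraries and tumour 3 was below every control. The log2 fold change was 3.27 ± 0.81 (SE, edgeR adjusted p = 0.0441) in tumour against control hearts, and -3.56 ± 0.83 (adjusted p = 0.0357) in tumour trained against tumour hearts. Without tumour 1 and 2 the same contrasts gave -0.52 ± 0.48 (adjusted p = 0.76) and 0.23 ± 0.49 (adjusted p = 0.854), both with the sign reversed.

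Kcnn4 (KCa3.1, the intermediate-conductance calcium-activated channel of blood and proliferating cells) had 7.0, 5.78 and 0.646 CPM in tumour 1, 2 and 3, against 0.479, 0.292 and 0.421 CPM in the controls. Kcnq5, a KCNQ channel best known from neurons, had 6.04, 2.3 and 0.554 CPM in the tumour libraries, against 0.287, 0.487 and 0.105 CPM in the controls. Tumour 1 and 2 were above all 10 other libraries for both genes. Neither passed the low-count filter, and both met the level threshold only through tumour 1 and 2. The same holds for Kcne3 and Kcnk13, which were not tested either. Kcnk5 (TASK-2) had 5.92, 0.905 and 1.29 CPM in tumour hearts, against 1.44, 0.973 and 1.05 CPM in control hearts, and only tumour 1 exceeded the controls. Kcne4, an accessory subunit that inhibits several Kv channels, had 4.01, 10.1 and 3.14 CPM in tumour hearts, against 3.64, 6.52 and 5.57 CPM in control hearts, and only tumour 2 exceeded the controls. Kcnd1, the least counted Kv4 gene, had 2.21, 1.81 and 0.462 CPM in tumour hearts and 0.67, 0.681 and 1.26 CPM in control hearts, with tumour 1 and 2 above and tumour 3 below every control. Beside the melanocyte list, the summed level of proliferation genes was 4.89 to 604 CPM in tumour hearts, against 2.43 to 8.71 CPM in the other 9 libraries. That of Schwann and nerve genes was 10.9 to 107 CPM in tumour hearts, against 9.45 to 15.5 CPM. The part of these cell types in the channel levels was not tested.

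The promoter windows of these genes were searched for the E-box letters CACGTG and CATGTG, which the melanocyte factor MITF is known to bind. Each gene was above every control in tumour 1, tumour 2 or both. Kcnk5 did not exceed the controls in tumour 2, nor did Kcne4 in tumour 1. Other members outside this group also exceeded every control. Kcne3 (1.62 and 0.835 CPM) and Kcnk13 (1.02 and 1.25 CPM) did so in tumour 1 and 2, and Kcnj14, Kcnn3 and Kcnq1 in tumour 2 only. Part of the group was chosen after its values were seen, so its number of E-boxes is no measure of enrichment. Whether MITF acts on any of these genes was not tested. Windows ran from 250 bases before to 50 after the start (RefSeq, GRCm38.p6), both strands were read, and 34 of the 49 members had a window. CACGTG was in 7 of 81 Kcn windows (8.64%), against 7.15% of all 32851 promoter windows. CATGTG was in 3 (3.7%), against 14.2%. The windows of Kcnn4, Kcnk5 and Kcne4 hold CACGTG, and 1 of 3 Kcnab2 windows holds CATGTG, read as CACATG on the strand printed. The Kcnh6 window and both Kcnq5 windows hold neither, and Kcnd1 was among the members without a window. These 4 are shown since the genes were high in at least 1 melanoma-rich library, with the E-box in capitals and each strand 5′ to 3′. The Kcnn4 window is chr7:24370013-24370312 (plus strand) and that of Kcnk5 is chr14:20181733-20182032 (minus strand). The Kcne4 window is chr1:78816661-78816960 (plus strand) and that of Kcnab2 is chr4:152448806-152449105 (minus strand). CACGTG was also in windows of Kcnj2 and Kcnab1, which were not high in tumour 1 or 2, and in those of no other member.
Kcnn4: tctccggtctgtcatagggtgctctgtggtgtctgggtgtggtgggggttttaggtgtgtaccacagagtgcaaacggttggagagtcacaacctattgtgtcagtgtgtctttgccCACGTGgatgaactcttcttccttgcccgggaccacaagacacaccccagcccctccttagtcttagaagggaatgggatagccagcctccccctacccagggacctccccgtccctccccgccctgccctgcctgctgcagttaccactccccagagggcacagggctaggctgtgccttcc
Kcnk5: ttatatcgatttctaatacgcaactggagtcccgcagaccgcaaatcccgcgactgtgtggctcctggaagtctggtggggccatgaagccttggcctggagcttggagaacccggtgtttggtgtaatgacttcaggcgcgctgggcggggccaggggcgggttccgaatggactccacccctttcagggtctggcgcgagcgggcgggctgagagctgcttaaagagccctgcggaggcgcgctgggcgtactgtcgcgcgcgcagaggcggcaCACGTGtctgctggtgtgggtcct
Kcne4: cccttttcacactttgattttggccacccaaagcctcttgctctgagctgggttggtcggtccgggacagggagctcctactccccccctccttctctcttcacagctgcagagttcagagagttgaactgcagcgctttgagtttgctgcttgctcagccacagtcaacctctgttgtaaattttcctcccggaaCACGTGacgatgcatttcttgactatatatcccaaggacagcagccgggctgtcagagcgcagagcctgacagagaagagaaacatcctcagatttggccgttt
Kcnab2: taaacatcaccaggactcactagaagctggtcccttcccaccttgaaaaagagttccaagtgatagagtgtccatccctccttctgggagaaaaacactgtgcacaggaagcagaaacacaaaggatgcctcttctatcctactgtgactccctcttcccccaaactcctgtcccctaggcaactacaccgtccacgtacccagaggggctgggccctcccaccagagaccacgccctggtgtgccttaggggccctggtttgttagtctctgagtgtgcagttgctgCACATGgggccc

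Kcnh6 (ERG2, a relative of the cardiac ERG1 channel) was the only tested member above every control in all 3 tumour libraries, where 14.2% of all genes were; the untested Kcnn4 and Kcnq5 were too. It had 121, 90.0 and 49.4 CPM in tumour 1, 2 and 3, against 22.6, 28.7 and 17.7 CPM in controls, and 32.6, 27.7 and 31.7 CPM in tumour trained hearts. All 3 tumour libraries also exceeded all 3 tumour trained libraries, and it was the only tested member below the tumour group there (14.5% of all genes). The log2 fold change was 1.92 ± 0.34 (SE, edgeR adjusted p = 0.039) in tumour against control hearts and -1.50 ± 0.33 (adjusted p = 0.0357) in tumour trained against tumour hearts. With tumour 3 alone it was 1.11 ± 0.31 (adjusted p = 0.13) and -0.70 ± 0.32 (adjusted p = 0.337). Kcnh6 was the only member with values that were not whole numbers, in 9 of 12 libraries. Counting whole reads would not give such values, so its level is uncertain.

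**Figure D3:**
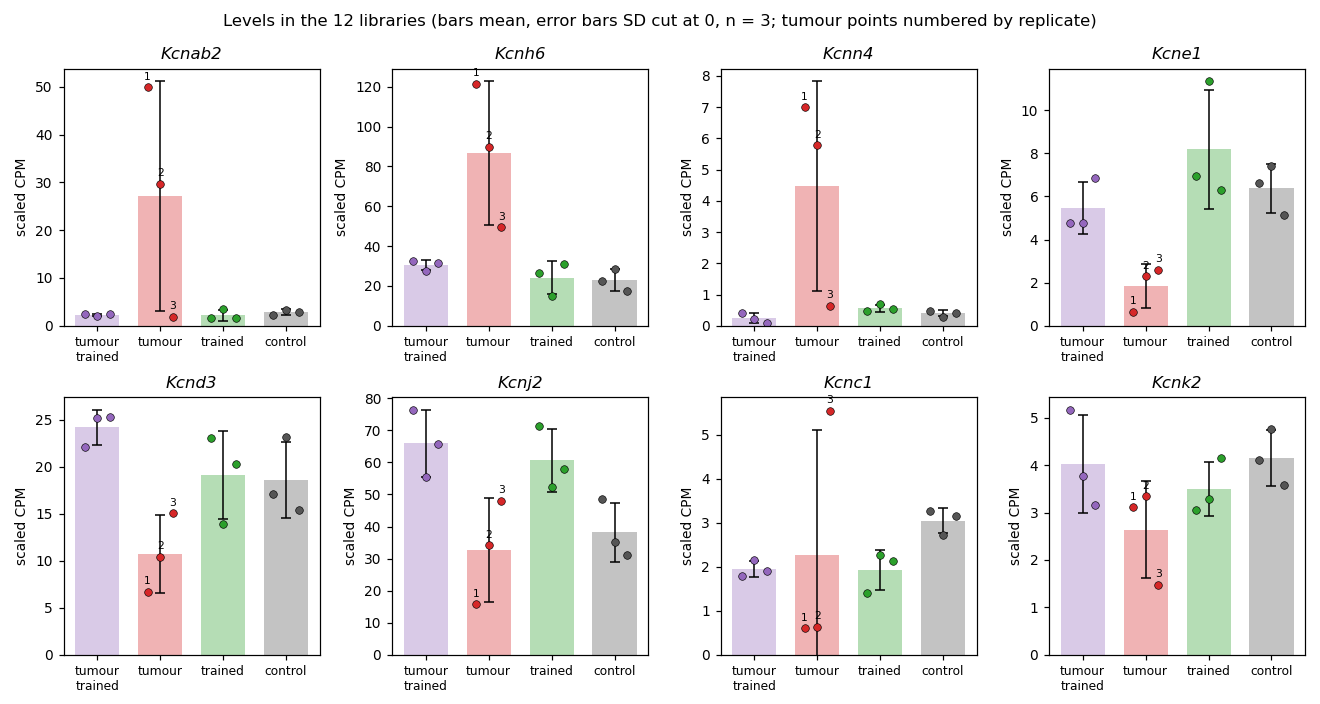
Scaled CPM (vertical axis, from 0) of 8 genes in the tumour trained, tumour, trained and control groups; bars are means of 3 libraries, error bars SD, and tumour points carry their replicate number. Kcnab2, Kcnh6 and Kcnn4 are high in tumour 1 and 2, Kcne1 is low in all 3 tumour libraries, and Kcnc1 is high and Kcnk2 low in tumour 3.

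The level of Kcne1 in each tumour library, tumour 3 included, was below that of every control. It encodes a single-span subunit that joins the KCNQ1 pore to form the slow delayed rectifier. Kcne1 had 0.658, 2.3 and 2.58 CPM in tumour 1, 2 and 3, against 6.61, 7.4 and 5.15 CPM in controls. Tumour trained hearts had 4.75, 4.75 and 6.84 CPM and trained hearts 6.95, 11.4 and 6.28 CPM, so no tumour library reached the lowest of the other 9. The log2 fold change was -1.81 ± 0.44 (SE, edgeR adjusted p = 0.0426) in tumour against control hearts and 1.58 ± 0.44 (adjusted p = 0.0482) in tumour trained against tumour hearts. With tumour 3 alone these were -1.29 ± 0.42 (adjusted p = 0.199) and 1.06 ± 0.43 (adjusted p = 0.292), no longer past the threshold. Scaled to cardiomyocyte genes, Kcne1 was still lower in tumour than in control hearts, with a log2 fold change of -0.90 (adjusted p = 0.0465).

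Its partner Kcnq1 had 14, 60.8 and 59.8 CPM in tumour hearts, against 58.2, 60.6 and 55.3 CPM in control hearts, so tumour 1 was low, tumour 3 was within the control range and tumour 2 was just above it. The log2 ratio of Kcne1 to Kcnq1 within a library does not depend on scaling. It was -4.41, -4.73 and -4.53 in tumour 1, 2 and 3, against -3.14, -3.04 and -3.42 in controls, so both melanoma-rich libraries and tumour 3 lay together. In tumour trained hearts it was -3.64, -3.58 and -3.16, above every tumour library. The exact two-sided permutation p was 0.1 for each comparison, the smallest that 3 against 3 libraries can give, among 28 such comparisons of 7 ratios. An antisense RNA, Kcnq1ot1, overlaps 4.0% of the exonic bases of Kcnq1, and the strand setting of the counting is not known.

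**Figure D4:**
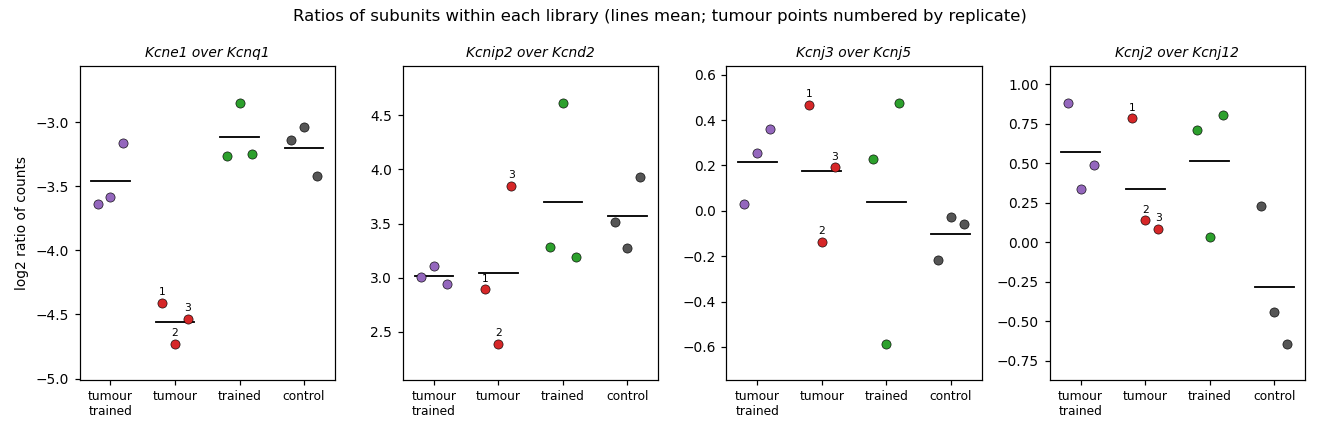
Log2 ratios of counts of paired genes within each library (vertical axis) for the tumour trained, tumour, trained and control groups; points are libraries, lines group means, and tumour points carry their replicate number. For Kcne1 over Kcnq1 the 3 tumour libraries lie between -4.73 and -4.41, below the other 9 libraries; the other 3 ratios do not separate tumour from control libraries in this way.

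Inward rectifiers (9 members, all tested) had a median log2 fold change of -0.69 in tumour against control hearts, and none was called. The median was -0.19 without tumour 1 and 2 and 0.13 when scaled to cardiomyocyte genes. Kcnj11, the main pore of the ATP-sensitive channel of heart muscle, had 44.3, 129 and 222 CPM in tumour 1, 2 and 3, against 214, 210.2 and 218 CPM in controls, so tumour 3 was above every control. Kcnj8, the pore of the vascular form, had 13.3, 31.9 and 53.1 CPM in tumour hearts, against 57.5, 70.7 and 63.7 CPM in control hearts, and all 3 tumour libraries were below the controls. Kcnj3 and Kcnj5 (GIRK1 and GIRK4) encode the subunits of the acetylcholine-activated channel. Kcnj3 had 26.3, 53.7 and 69.6 CPM in tumour hearts, against 70.2, 92.8 and 77 CPM in control hearts. Kcnj5 had 19, 59 and 60.9 CPM in tumour hearts, against 81.7, 94.4 and 80.1 CPM in control hearts. Both were below every control in all tumour libraries, including tumour 3. Tumour trained hearts had 98.7, 107 and 109 CPM of Kcnj3, above every tumour and every control library. An opposite-strand gene overlaps 31.1% of the exonic bases of Kcnj3. Among the classical inward rectifiers, Kcnj12 (Kir2.2) had 9.09, 31 and 45.2 CPM in tumour hearts and 41.4, 47.5 and 48.4 CPM in control hearts.

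Of the leak channels, 6 were members and 4 were tested, with none called. Kcnk3 had 87.2, 211 and 467 CPM in tumour 1, 2 and 3, against 459, 415 and 454 CPM in controls, so tumour 3 was above every control. Kcnk2 (TREK-1, a stretch- and lipid-sensitive leak channel) ran the other way. It had 3.11, 3.34 and 1.48 CPM in tumour hearts, against 4.12, 4.77 and 3.58 CPM in control hearts, and tumour 3 was the lowest of the 12 libraries. With tumour 3 alone its log2 fold change was -1.48 ± 0.39 (SE, edgeR adjusted p = 0.106), which did not pass. An opposite-strand gene overlaps 14.4% of the exonic bases of Kcnk2.

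The transient outward current genes were low in tumour 1 and 2. Kcnd2 (Kv4.2) had 5.68, 14.6 and 19.8 CPM in tumour hearts, against 21.8, 28.5 and 18.9 CPM in control hearts, and 33.6, 31 and 33.4 CPM in tumour trained hearts. Kcnd3 (Kv4.3) had 22.1, 25.2 and 25.4 CPM in tumour trained hearts, against 6.7, 10.4 and 15 CPM in tumour hearts, with no overlap. Control hearts had 17.1, 23.2 and 15.5 CPM, within which range the tumour trained level partly lay. The log2 fold change of Kcnd3 was 1.18 ± 0.29 (SE, edgeR adjusted p = 0.0359) in tumour trained against tumour hearts and 0.67 ± 0.28 (adjusted p = 0.31) with tumour 3 alone. Scaled to cardiomyocyte genes it was 0.16 (adjusted p = 0.715). Kcnip2 had 42.2, 76.6 and 286 CPM in tumour hearts, against 249, 275 and 288 CPM in control hearts. Tumour 3 lay within the control range, and the log2 fold change of -1.01 ± 0.51 had an adjusted p of 0.178.

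Kcna5 and both silent subunit genes were also lowest in tumour 1. Kcna5 (Kv1.5), the most counted of 6 Kv1 genes, had 8.97, 32.5 and 30.8 CPM in tumour hearts, against 43.4, 33.7 and 37.6 CPM in control hearts. Kcng2 had 33.3, 112 and 122 CPM in tumour hearts, against 156, 136 and 146 CPM in control hearts, and all 3 tumour libraries were below every control. Kcnv2, the other silent subunit, had 1.5, 8.07 and 20.1 CPM in tumour hearts, against 10.8, 14.1 and 16.9 CPM in control hearts, with tumour 3 above them.

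Kcnh2 (ERG1, the pore of the rapid delayed rectifier) had 23.7, 62.4 and 124 CPM in tumour 1, 2 and 3, against 88.1, 91.8 and 100.4 CPM in controls, so that tumour 3 was above and tumour 1 and 2 below every control. Kcnc1 (Kv3.1, a fast-gating channel known mainly from neurons) had 0.598, 0.626 and 5.54 CPM in tumour 1, 2 and 3. Controls had 3.26, 2.73 and 3.15 CPM and tumour trained hearts 1.79, 2.16 and 1.89 CPM. Tumour 3 was the highest of the 12 libraries, and tumour 1 and 2 the lowest. With tumour 3 alone Kcnc1 was the only member called in any contrast, lower in tumour trained than in tumour hearts at -1.52 ± 0.30 on the log2 scale (SE, edgeR adjusted p = 0.0473). In that fit 0.593% of all genes were called lower and 0.123% higher. Over all 12 libraries the same contrast was -0.16 ± 0.70 (adjusted p = 0.886), and this call rests on 1 tumour library.

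The calcium-activated channels were uneven in level. Kcnn1 (SK1) had 5.68, 12.9 and 26.8 CPM in tumour hearts, against 24.3, 21.9 and 28.2 CPM in control hearts. Kcnn2 (SK2) had 2.33, 7.31 and 12.5 CPM in tumour hearts, against 16.3, 16.8 and 12.2 CPM in control hearts. Both were lowest in tumour 1. Kcnmb1, the smooth muscle beta subunit of the BK channel, had 1.2, 2.78 and 2.12 CPM in tumour hearts, against 3.54, 2.63 and 3.79 CPM in control hearts, while the BK pore gene Kcnma1 was below the level threshold with at most 5 counts in any library. Kcnt2, a sodium-activated channel, had 3.06, 3.99 and 3.26 CPM in tumour trained hearts, against 1.32, 0.905 and 1.48 CPM in tumour hearts. The groups did not overlap, and its log2 difference, 1.48 ± 0.45 (SE), did not pass (edgeR adjusted p = 0.0596).

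Another 17 members were called in no contrast of either fit and lay between 0.0923 CPM (Kcne3 in tumour 3) and 16.7 CPM (Kcna7 in tumour 3). They were Kcna1, Kcna2, Kcna4, Kcna6 and Kcna7 of the Kv1 pores, Kcnab1, Kcnc4, Kcne3, Kcnip3, Kcnj4, Kcnj14, Kcnj15, Kcnk1, Kcnk6, Kcnk13, Kcnn3 and Kcnt1. Among them Kcnip3, a KChIP also known as a calcium-binding repressor of transcription, had 1.62, 2.3 and 3.78 CPM in tumour hearts, against 2.49, 2.43 and 2.52 CPM in control hearts. Tumour 3 was above every control, and tumour 1 and 2 were below every control.

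Counting libraries without regard to a fit, 9 of the 42 tested members had all 3 tumour libraries below all controls, where 11.8% of all genes did. They included Kcna5, Kcnd3, Kcne1, Kcng2, Kcnj3, Kcnj5, Kcnj8 and Kcnk2. For tumour trained against tumour hearts, 11 members did not overlap and were higher, where 13.5% of all genes were. These included Kcnd2, Kcnd3, Kcne1, Kcnj15, Kcnj2, Kcnj3, Kcnj5, Kcnmb1, Kcnn2 and Kcnt2. Kcnk2 was the only tested member whose lowest level of the 12 libraries was in tumour 3.

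**Figure D5:**
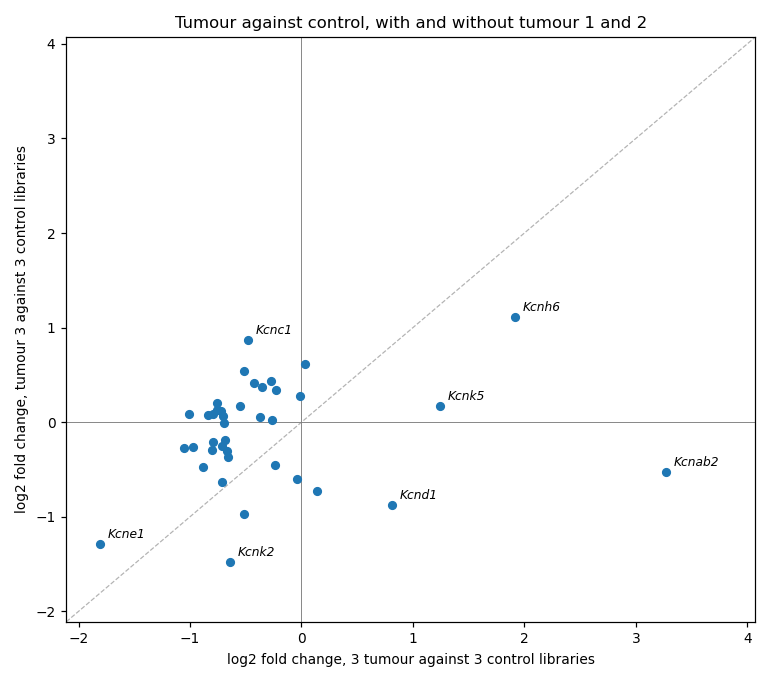
Log2 fold changes of tumour against control hearts for the members reported here and tested in both fits; the horizontal axis uses 3 tumour libraries and the vertical axis tumour 3 alone, and the dashed line marks equal values. Kcne1 (-1.81 and -1.29) and Kcnh6 (1.92 and 1.11) keep their direction, whereas Kcnab2 changes sign (3.27 and -0.52).

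Training without tumour changed no member past the threshold. With edgeR, 0% of all genes were called in trained against control hearts, and DESeq2 called no member. No member had an edgeR unadjusted p below 0.05, and only 278 of all 12778 genes did. This fit shares 1 estimate of the spread over the 4 groups, tumour 1 and 2 included, so smaller differences could go unseen. The members' median log2 fold change was 0.01, as was that of all genes. Without tumour 1 and 2 the members' median was 0.02, against 0.01 for all genes. Kcnj2 (Kir2.1, the main inward rectifier of ventricular muscle) had 71.3, 52.4 and 58.1 CPM in trained hearts, against 48.4, 35 and 31 CPM in control hearts, and 76.4, 55.6 and 65.9 CPM in tumour trained hearts. All 6 trained libraries were above every control, and tumour hearts had 15.7, 34.1 and 48 CPM. The log2 fold change of Kcnj2 was 0.67 ± 0.33 (SE, edgeR adjusted p = 1) in trained against control hearts. In tumour trained against tumour hearts it was 1.02 ± 0.33 (adjusted p = 0.069). Kcnj2, Kcna6 and Kcnn2 were the 3 tested members whose trained libraries were all above the controls, where 4.04% of all genes were, and Kcnc1 alone was below, where 5.44% were.

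Between tumour trained and trained hearts no member was called, nor was any other gene (0%), and DESeq2 called no member. No member had an edgeR unadjusted p below 0.05, and only 150 of all 12778 genes did, with the same shared spread. Among tested members Kcnd1 and Kcnd2 were higher without overlap, where 7.9% of all genes were, and Kcnj8 and Kcnk3 lower, where 8.05% were. Kcnk3 had 356, 363 and 368 CPM in tumour trained hearts, against 412, 518 and 383 CPM in trained hearts. Trained 2 was itself low for Kcnd2, Kcnd3 and Kcnj3. It had 12.3 CPM of Kcnd2, 14 CPM of Kcnd3 and 50.7 CPM of Kcnj3, against at least 25.5, 20.3 and 98.9 CPM in trained 1 and 3. The tumour by training interaction, which asks whether the tumour difference was the same in trained and untrained mice, yielded no member and 0.0235% of all genes. In it 5 of 42 members had an edgeR unadjusted p below 0.05, as had 14.4% of all genes, and DESeq2 called 1 member, Kcnn4, and 1.81% of all genes. Kcnn4 is a member only through tumour 1 and 2, which enter this contrast, so its call is no separate result. The members' median interaction was 0.49 on the log2 scale, against -0.08 for all genes. Without tumour 1 and 2 it was -0.09, against -0.002.

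Genes that work with these channels were taken from a separate list of 32, of which 30 were in the table and 28 were tested. None was called in tumour against control hearts with edgeR, where 5.33% of all genes were called higher and 1.46% lower. At an unadjusted p below 0.05 were 4 of the 28, against 4395 of all 12778 genes. In tumour trained against tumour hearts 1 of the 28 was called lower, against 7.25% of all genes. It was Nedd4l, a ubiquitin ligase that removes channels from the surface. Nedd4l had 114, 71.2 and 47.2 CPM in tumour 1, 2 and 3, against 37.4, 41.4 and 43.7 CPM in control hearts, and 37.7, 47.1 and 38.9 CPM in tumour trained hearts. Its log2 fold change in tumour trained against tumour hearts was -0.91 ± 0.26 (SE, edgeR adjusted p = 0.0487). Without tumour 1 and 2 it was -0.21 ± 0.16 (adjusted p = 0.554), and no gene of the list was called in either comparison. Abcc9 (SUR2), the regulatory partner of Kcnj11, had 101, 268 and 489.7 CPM in tumour hearts, against 492, 525 and 434 CPM in control hearts. The log2 ratio of Kcnj11 to Abcc9 was -1.13 ± 0.06 in tumour hearts and -1.17 ± 0.17 in control hearts (SD, n = 3 each), with an exact two-sided permutation p of 0.8. In tumour trained hearts it was -1.42 ± 0.12 (SD, n = 3), below every tumour library, with an exact p of 0.1, the smallest possible. Of the 28 ratio comparisons, 4 reached that p.

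Among members, likeness over the 12 libraries (Pearson correlation of log2 (CPM + 1), as a description, since all points share the split of tumour 1 and 2) paired genes as follows. Kcnab2 was most like Kcnn4 (0.96), Kcnq5 (0.93) and Kcnd1 (0.85). Kcnh6 was most like Kcnq5 (0.89), Kcnn4 (0.84) and Kcnab2 (0.81). Kcne1 was most like Kcnn2 (0.90), Kcnj8 (0.88) and Kcng2 (0.85). Kcnd3 was most like Kcnj3 (0.97), Kcnd2 (0.95) and Kcnj5 (0.88), and Kcnc1 was most like Kcnh2 (0.81), Kcnn1 (0.79) and Kcna7 (0.79).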

How the data were processed

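The estimated counts per gene were made by the authors from their reads and deposited in 1 table for the series, without normalization. HISAT2 2.2.1 and featureCounts are the tools in the submitters' processing notes, which list both GRCm39 and mm10 as builds. The build behind the table, its annotation, its strand setting and its gene filter are not stated, so the coordinates printed are only those of the RefSeq promoter table (GRCm38.p6). From 7.09% to 8.92% of a library's values were not whole numbers. By the GENCODE vM21 annotation, from which exonic lengths were taken, 12 members have exons that overlap another gene.

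Groups were read from the sample titles. Estimated counts were rounded, genes with low counts were removed by group (4619 genes), and the remaining 12778 were tested with edgeR 4.0.16 (R 4.3.3). A single quasi-likelihood fit of 12 libraries held 4 group means, with 8 residual degrees of freedom and TMM scaling. From it 5 contrasts were read and adjusted over all genes by Benjamini-Hochberg (threshold 0.05). SE is the size of the log2 fold change over the root of F. Counts over exonic kilobases give the levels per kb. Every pair of replicates differed by more than sampling noise (chi-square per gene 3.67 to 369.55), so none was merged. Alternatives were DESeq2 1.42.0, its size factors, scaling to cardiomyocyte genes, no filter, a replicate block, and leaving out tumour 1 and 2 or each library. The scripts were tested on simulated counts. Members shown in full are those called in either fit, the most counted of each subfamily, those with no overlap between tumour and control libraries, and others chosen after their values were seen. The members, lists and tests were chosen with earlier results of these data known. Depth limits the precision of members under about 1 CPM, and the floor of 3 counts covers counting error only. Results of 3 members are not reported here, though they enter the fits, counts and medians.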

Additional observations from a re-analysis of the deposited data

How the results depend on the processing

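The direction of the members' calls held under most alternatives, but their number did not. In tumour against control hearts, where 3 members were called, DESeq2 called 6 (14.3% of all genes), no filter on low counts 5 (6.7%), and scaling to cardiomyocyte genes 9 of 42 (70.4% of all genes). No member was called without tumour 1 and 2 (0), and leaving out 1 library gave 0 to 29, the highest without tumour 3 (53% of all genes). In tumour trained against tumour hearts, where 4 were called, DESeq2 called 12 of 49 (15.2% of all genes), the fit without tumour 1 and 2 called 1, and leaving out 1 library gave 0 to 29. The DESeq2 calls in both comparisons include Kcnn4 and Kcnq5, which are members only through tumour 1 and 2. For the interaction of tumour and training, where none was called, DESeq2 called 1, again Kcnn4 (1.81% of all genes). Leaving out 1 library gave 0 to 17 there, the highest without tumour 3 (30.1% of all genes). Both comparisons that do not involve the untrained tumour group gave 0 under all 18 alternatives. Kcnab2 changed sign without tumour 1 and 2, to a log2 fold change of -0.524 in tumour against control hearts and 0.229 in tumour trained against tumour hearts. The Kcnc1 difference between tumour trained and tumour hearts was -0.159 over 12 libraries, and leaving out 1 library gave -0.637 to 1.68, the last without tumour 3. The cause of these changes was not tested.

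Same-numbered libraries did not deviate together: of 18 same-numbered pairs, 3 had a correlation above 0.1 (range -0.268 to 0.241), so the numbers do not pair the libraries. With the replicate number as a block, 0 members were called in tumour against control hearts, against 0.125% of all genes. In tumour trained against tumour hearts it was 0 as well, against 0.141% of all genes. The Kcnc1 log2 fold change between tumour trained and tumour hearts stood at 0.187 in that fit.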

Other observations

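Among the 33 Kcn genes below the level threshold, a few had counts mainly in tumour 1 and 2. Kcnj13, which encodes the inward rectifier Kir7.1, was counted 10 and 6 times in tumour 1 and 2 and at 0 in tumour 3, as in each of the other 9 libraries. Kcnmb4, a beta subunit of the BK channel, had 8, 2 and 0 counts in the tumour libraries, against 1, 1 and 0 in the controls. Kcnu1, a pH-sensitive channel known from sperm, had 8, 3 and 0 counts in the tumour libraries, against 1, 0 and 0 in the controls. These counts are too few for a test, and the genes were chosen after their values were seen.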
